A study of Mus musculus with 12 samples.

Results

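Canonical WNT signalling was followed through 10 listed genes in mouse embryos with Lhx1 deleted in the epiblast. Lhx1 codes for LHX1, a homeodomain protein with LIM domains without which the head does not form. They are genes that WNT signals induce and that feed back on the pathway or act downstream of it (Axin2, Nkd1, Sp5, Sp8, Fst), together with the nuclear mediators β-catenin (Ctnnb1), Lef1, Tcf7, Tcf7l1 and Tcf7l2. They were found by their gene names in the deposited array table, which named 16 probes for 9 of the 10 genes among 30344 probes under 19060 gene names. No probe carried the name Nkd1, and this gene was not analysed here. Of the 16 probes, 13 were detected on at least 3 of the 12 arrays and were tested, and these covered all 9 genes. The other 3, a second Lef1 probe and a pair of Tcf7l2 probes, were detected on no array. Probes of a gene that has 2 tested ones are called probe 1 and probe 2, in the order of their IDs given where each is first described.

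Embryos at E7.75, between early bud and early head fold, were divided into anterior and posterior parts, and each array read total RNA from a pool of 5 parts. The groups were anterior Lhx1epiCKO, anterior control, posterior Lhx1epiCKO and posterior control, with 3 arrays each. Lhx1epiCKO embryos were Lhx1-/flox; Meox2+/Cre, and controls were Lhx1+/flox; Meox2+/Cre. Both genotypes carried a floxed Lhx1 allele and Cre made from the Meox2 locus, which acts in the epiblast, so that epiblast-derived control tissue keeps 1 intact allele, while Lhx1epiCKO embryos carry the Lhx1- allele in all tissues. The labels give the tissue of all 12 samples as embryonic head, posterior parts included. The labels call the samples of a group biological replicates and do not say whether anterior and posterior pools of one number came from the same embryos.

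When a WNT ligand binds its receptors, β-catenin escapes the destruction complex, enters the nucleus and binds the DNA-bound TCF/LEF factors. LEF1 and TCF7 then act mostly as activators, TCF7L1 acts mostly as a repressor and TCF7L2 can do either. In the gastrulating mouse embryo this signal is strong posteriorly, in and near the primitive streak, and is kept low anteriorly, where the head forms. AXIN2 is a scaffold of the destruction complex whose gene WNT induces, which gives negative feedback, and NKD1 is another inhibitor induced by the pathway. SP5 and SP8 are zinc-finger transcription factors that act with WNT signals in the streak and tail bud, and follistatin (Fst) is a secreted protein that binds and neutralises activins.

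In the anterior part, no member passed the threshold between genotypes. Fst, Axin2, Sp5 and Sp8 had the largest positive differences, at 1.00, 0.58, 0.43 and 0.37 on the log2 scale. In the posterior part the same genes differed between genotypes by 0.02, 0.10, 0.11 and 0.01. The test of a difference between the anterior and posterior effects called none of them, so their effects are not shown to differ. Between the parts of control embryos, Fst, Sp5, Axin2, Lef1, Sp8 and a Tcf7 probe were called lower anteriorly and a Ctnnb1 probe higher. Of these, Fst, Sp5, Axin2 and Lef1 were also called lower anteriorly in Lhx1epiCKO embryos. Sp8 and the Tcf7 probe read lower there without passing. The calls of Fst and Sp5, and that of Axin2 in controls, held when any single array was left out, and each other call was lost without some array.

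Values are the authors' normalized log2 intensities, on which probes with a detection p of 0.05 or more had a median of 6.59 and the highest value was 14.8. Array medians ranged from 6.81 to 6.83 and the probes detected per array from 14243 to 16238. Lhx1 itself read 6.84, 6.65 and 7.09 on the anterior Lhx1epiCKO arrays, against 8.13, 8.25 and 8.44 on the anterior control arrays. In the posterior part it read 6.85, 7.18 and 7.30 on the Lhx1epiCKO arrays, against 8.54, 6.90 and 8.35 on the control arrays. Of the 3 Lhx1epiCKO arrays of each part, 2 detected it. Its difference did not pass in the anterior part (-1.41 ± 0.32, SE, adjusted p = 0.344, limma) or the posterior part (-0.82 ± 0.32, SE, adjusted p = 0.504, limma). The array labelled posterior control replicate 2 had Lhx1 within the range of the Lhx1epiCKO arrays, unlike the other posterior control arrays, so its label is in doubt. Its 7 anterior neuroectoderm markers averaged 7.21, against 7.44 and 7.54 on the other posterior control arrays. The reason for its low Lhx1 was not tested. Posterior Lhx1epiCKO replicate 3 stood apart in another way: 779 probes lay over 1 log2 unit away from the mean of its group's other arrays, while on the other 11 arrays this number was 0 to 279. Its 5 measured visceral endoderm markers averaged 8.87, against 11.1 and 11.2 on the other posterior Lhx1epiCKO arrays and 10.9 to 11.5 on the posterior control arrays. These markers did not vary alike over the posterior Lhx1epiCKO group. The SD there was 3.72 for Apoa1, 1.79 for Apob and 1.69 for Ttr, against 0.70 for Afp and 0.08 for Rbp4. The low mean is thus not shown for every marker. Results that rest on these 2 arrays, called the doubted arrays below, are given with and without them. Without both, the Lhx1 differences were -1.41 and -1.43 (adjusted p = 0.000268 and 0.00481, limma). One of the 2 arrays was doubted for its Lhx1 value itself, so these p-values are no independent test of Lhx1. The arrays measure whole parts, so fewer cells of a type and less RNA per cell cannot be told apart.

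Upstream sequence was read for the members from RefSeq start sites on GRCm38.p6, as the 250 bases before each start. There were 17 such start sites for 9 of the 10 genes, Nkd1 included, and Fst was not in the table. The letters CTTTGA, the core of the TCF/LEF recognition sequence, were searched on both strands, and so was the GC box GGGCGG, the kind of sequence that SP-family proteins bind. The 2 motifs did not overlap each other in any of these windows. Matches to the core were found at 3 of the 17 start sites, and 13.8% of all 32851 start sites held one. Matches to the GC box were found at 11 of the 17, and 32.7% of all start sites held one. The windows that hold the core are shown with that of Axin2, the feedback gene most used as a readout of the pathway, whose window held 2 GC boxes and no core match. All 4 are on the plus strand, 5′ to 3′, and capitals mark the matches to either motif on either strand.
Sp5, chr2:70474673-70474922: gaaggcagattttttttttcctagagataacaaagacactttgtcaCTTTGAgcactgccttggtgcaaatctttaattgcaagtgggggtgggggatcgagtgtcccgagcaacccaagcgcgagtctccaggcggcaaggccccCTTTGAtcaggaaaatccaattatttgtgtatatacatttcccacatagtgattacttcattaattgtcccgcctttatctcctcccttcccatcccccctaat
Lef1, start site 4, chr3:131156044-131156293: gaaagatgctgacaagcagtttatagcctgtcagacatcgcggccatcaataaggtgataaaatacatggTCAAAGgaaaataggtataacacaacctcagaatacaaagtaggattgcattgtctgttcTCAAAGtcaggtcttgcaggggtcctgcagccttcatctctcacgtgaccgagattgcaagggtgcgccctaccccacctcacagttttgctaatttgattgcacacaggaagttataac
Sp8, start site 2, chr12:118846983-118847232: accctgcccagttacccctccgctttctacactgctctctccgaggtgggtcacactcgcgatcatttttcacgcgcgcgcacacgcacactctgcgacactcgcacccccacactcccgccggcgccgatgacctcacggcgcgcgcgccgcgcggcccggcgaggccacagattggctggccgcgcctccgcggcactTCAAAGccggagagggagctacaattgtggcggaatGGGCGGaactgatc
Axin2, chr11:108920099-108920348: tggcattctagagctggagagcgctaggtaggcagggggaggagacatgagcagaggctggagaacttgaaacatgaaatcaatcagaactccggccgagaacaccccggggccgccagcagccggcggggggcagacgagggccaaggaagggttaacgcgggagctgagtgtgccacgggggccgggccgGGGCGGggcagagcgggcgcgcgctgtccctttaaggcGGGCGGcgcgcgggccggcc
Counted from the start site, the core matches of the Sp5 window begin at -204 and -104, both on the strand of the gene. The Lef1 window belongs to start site 4, which lies downstream of 3 others whose windows each held a GC box and no core. Its 2 core matches, beginning at -180 and -120, were on the opposite strand. The Sp8 window held 1 core match on the opposite strand, beginning at -50, and a GC box beginning at -14. A match is a run of letters only, and binding was not measured.

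**Figure D1:**
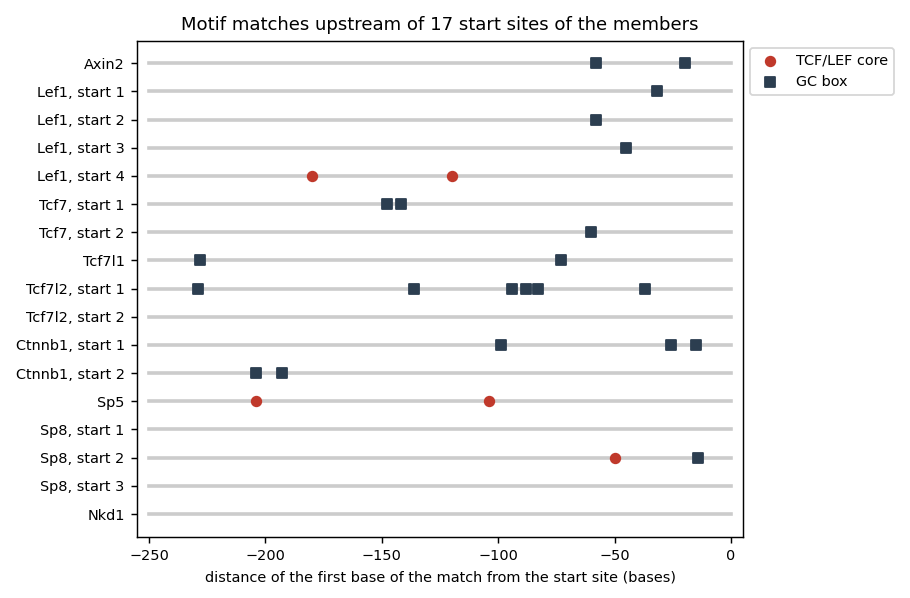
Matches to the TCF/LEF core (red circles) and the GC box (dark squares) in the 250 bases before 17 start sites of 9 genes, by the distance in bases of the first base of the match from the start site. Core matches lie at the Sp5 start site, at start site 4 of Lef1 and at start site 2 of Sp8, and 11 windows hold a GC box.

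The first comparison asks how the pathway's targets and mediators differ in the anterior part, from which the head forms, when Lhx1 is deleted in the epiblast. Fst, Axin2, Sp5 and Sp8 read higher on average in anterior Lhx1epiCKO parts, the 2 tested probes each of Ctnnb1, Tcf7l1 and Tcf7l2 read lower, and those of Tcf7 lay near 0. With limma, 0 of the 13 probes were called at an adjusted p under 0.05, where 0.0704% of all 17041 tested probes were called (12 probes), 0.0235% higher and 0.0469% lower. At an unadjusted p under 0.05 there were 4 of 13, against 1.93% of all tested probes. The groups did not overlap for 3 probes that were higher, against 5.76% of all tested probes, and for 3 that were lower, against 6.48%. The median difference of the 13 probes was -0.07, against 0.00 over all tested probes.

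Axin2 (probe ILMN_2896314, chromosome 11) read 9.82, 9.75 and 9.99 in anterior Lhx1epiCKO parts, against 9.19, 9.16 and 9.46 in anterior control parts. Every Lhx1epiCKO array was above every control array. The difference was 0.58 ± 0.15 (SE), or 1.50-fold, and did not pass (limma, adjusted p = 0.547). Without the 2 arrays named above, both of them posterior, the same difference had an adjusted p of 0.0858.

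Of the downstream transcription factors, Sp5 (probe ILMN_2641201, chromosome 2), whose window with 2 core matches is shown above, read 10.40, 10.33 and 10.64 in anterior Lhx1epiCKO parts, against 9.92, 10.12 and 10.04 in anterior control parts. All 3 Lhx1epiCKO values lay above all 3 control values. Its difference was 0.43 ± 0.14 (SE), or 1.34-fold (adjusted p = 1, limma). Sp8 (probe ILMN_2658312, chromosome 12) read 8.31, 8.15 and 8.51 in anterior Lhx1epiCKO parts, against 8.20, 7.90 and 7.76 in anterior control parts. Here the groups overlapped, as control replicate 1 was above Lhx1epiCKO replicate 2. The Sp8 difference was 0.37 ± 0.13 (SE), or 1.29-fold (adjusted p = 1, limma).

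Fst (probe ILMN_1228958, chromosome 13) read 9.02, 9.25 and 9.81 in anterior Lhx1epiCKO parts, against 8.40, 8.41 and 8.28 in anterior control parts. The groups did not overlap, the control arrays lay close together and Lhx1epiCKO replicate 3 was the highest. The difference was 1.00 ± 0.17 (SE), or 2.00-fold, with a 95% interval of 0.63 to 1.36, and it missed the threshold (limma, adjusted p = 0.0596). It passed in 6 of 23 alternative fits, with differences of 0.77 to 1.17 and adjusted p-values of 0.00208 to 0.292 over all of them. Without the 2 doubted posterior arrays, which enter this fit only through the shared variance, the adjusted p was 0.00972. Without anterior Lhx1epiCKO replicate 3 the difference was 0.77 (adjusted p = 0.121).

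Among the nuclear mediators, β-catenin was read by 2 probes (chromosome 9). Probe 1 of Ctnnb1 (ILMN_2994460) read 12.26, 12.10 and 12.22 in anterior Lhx1epiCKO parts, against 12.32, 12.21 and 12.28 in anterior control parts. These values overlapped, and the difference was -0.08 ± 0.27 (SE, adjusted p = 1, limma). Probe 2 (ILMN_2696575) read 10.85, 10.62 and 10.98 in anterior Lhx1epiCKO parts, against 10.99, 10.998 and 11.48 in anterior control parts. Its groups were separate by the narrow gap between 10.98 and 10.99, with a difference of -0.34 ± 0.17 (SE, adjusted p = 1, limma).

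Lef1 (probe ILMN_2648475, chromosome 3) read 7.50, 7.63 and 7.57 in anterior Lhx1epiCKO parts, against 7.20, 7.54 and 7.47 in anterior control parts. The groups overlapped, with a difference of 0.17 ± 0.11 (SE, adjusted p = 1, limma). Tcf7 probe 1 (ILMN_2717975, chromosome 11) read 7.63, 7.48 and 7.78 in anterior Lhx1epiCKO parts, against 7.57, 7.75 and 7.57 in anterior control parts. Probe 2 of Tcf7 (ILMN_1242308) read 7.56, 7.44 and 7.58 in anterior Lhx1epiCKO parts, against 7.57, 7.54 and 7.68 in anterior control parts. The groups of both Tcf7 probes overlapped, and the differences were -0.0015 and -0.07. The 95% interval of probe 1 ran from -0.27 to 0.27, so a change of either sign up to that size was not excluded. The interval is taken before adjustment for the number of probes and is not a limit of detection.

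Tcf7l1 probe 1 (ILMN_3109289, chromosome 6) read 11.77, 11.41 and 11.64 in anterior Lhx1epiCKO parts, against 11.99, 11.78 and 11.99 in anterior control parts. All Lhx1epiCKO values of this repressor's gene lay below all control values, if only just, and the difference was -0.31 ± 0.28 (SE, adjusted p = 1, limma). Tcf7l2 probe 1 (ILMN_2641647, chromosome 19) read 8.61, 8.27 and 8.79 in anterior Lhx1epiCKO parts, against 8.80, 8.71 and 8.95 in anterior control parts. These groups overlapped, with a difference of -0.27 ± 0.24 (SE, adjusted p = 1, limma). The second probes of both genes were dim. Probe 2 of Tcf7l1 (ILMN_2771781) was detected on 7 of the 12 arrays and differed by -0.12 ± 0.11, and probe 2 of Tcf7l2 (ILMN_3006739) was detected on 6 and differed by -0.11 ± 0.10 (both SE, adjusted p = 1, limma).

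**Figure D2:**
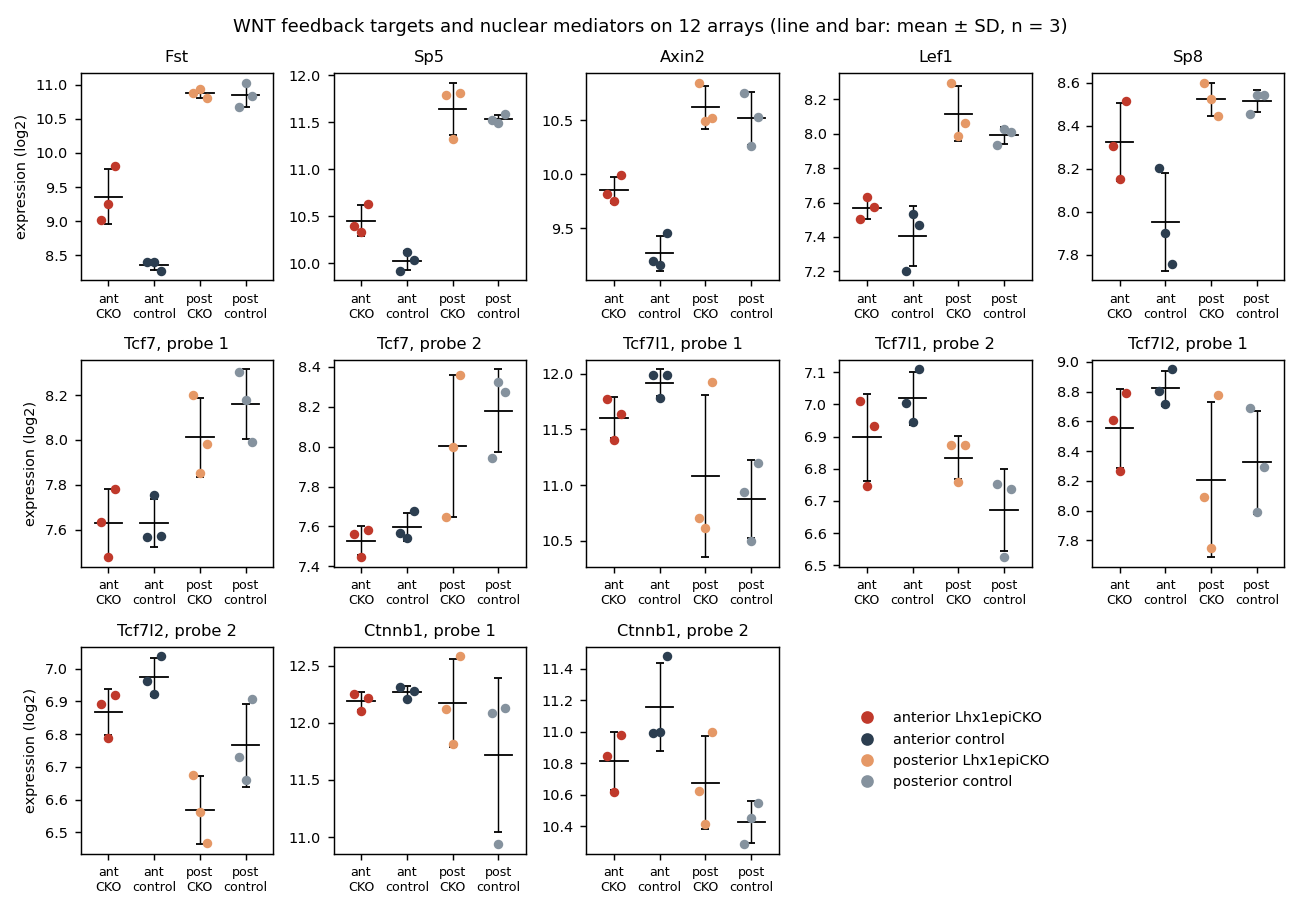
Normalized log2 expression of the 13 tested probes on 12 arrays (points, in replicate order), with the mean and SD of the 3 arrays of each group; ant and post stand for the anterior and posterior part, CKO for Lhx1epiCKO, and each panel has its own scale. In the anterior part the Lhx1epiCKO points of Fst, Sp5 and Axin2 lie above the control points, and in the posterior part the genotypes overlap for these genes.

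Most markers of posterior tissue also read higher on average in anterior Lhx1epiCKO parts, and the mean of the streak list was raised chiefly on 1 array. The mean log2 level of 9 primitive streak and nascent mesoderm markers, all on the array, was 8.16, 8.27 and 9.09 on the anterior Lhx1epiCKO arrays, against 7.96 to 8.04 on the anterior control arrays. Of the 9 markers, 7 had the higher mean in anterior Lhx1epiCKO parts, Wnt3 by little (6.85, against 6.83 in anterior control parts). Among these 7, Wnt3a averaged 8.84 ± 0.95 in anterior Lhx1epiCKO parts, against 7.04 ± 0.18 in anterior control parts (SD, n = 3 each). The other 2 of the 9 markers were lower, Eomes at 7.24 in anterior Lhx1epiCKO parts, against 7.48 in anterior control parts, and Mesp1 at 9.08 in anterior Lhx1epiCKO parts, against 9.48 in anterior control parts. T and Tbx6 were higher on every anterior Lhx1epiCKO array than on any anterior control array. T read 10.33, 10.65 and 11.35 in anterior Lhx1epiCKO parts, against 9.94, 9.95 and 10.22 in anterior control parts. Evx1 overlapped between these groups. Over the 6 markers that are not also in the list of other WNT targets described below, the means were 7.66, 7.72 and 8.52 on the anterior Lhx1epiCKO arrays, against 7.58 to 7.63 on the anterior control arrays, so replicate 3 alone stood clearly apart. Replicate 3 of anterior Lhx1epiCKO was the highest of its group in this mean and also in Axin2, Sp5, Sp8 and Fst. None of the 9 markers was at background on every array of either anterior group, so streak or mesoderm RNA was measurable in both. The 7 anterior neuroectoderm markers averaged 7.93 to 7.995 in anterior Lhx1epiCKO parts, against 8.52 to 8.68 in anterior control parts, where Six3 and Sox1 were detected on no anterior array and Hesx1 only on the control ones. The 6 primitive blood markers averaged 7.50 to 7.56 in anterior Lhx1epiCKO parts, against 7.13 to 7.25 in anterior control parts, and Hba-x was detected on no anterior Lhx1epiCKO array and Hbb-y on no anterior control array. The 6 node and notochord markers averaged 7.27 to 7.60 in anterior Lhx1epiCKO parts, against 7.73 to 7.77 in anterior control parts, with Shh at 7.06 in anterior Lhx1epiCKO parts, against 8.34 in anterior control parts, and none was at background on every array of either group. The 5 maternal decidua markers lay near background, at 6.63 to 6.69 in anterior Lhx1epiCKO parts, against 6.72 to 6.83 in anterior control parts. The 5 trophoblast markers averaged 8.33 to 8.96 in anterior Lhx1epiCKO parts, against 7.86 to 8.84 in anterior control parts. Over the 4 that are not also other WNT targets, the range was 7.74 to 8.42, against 7.49 to 8.57. Of these, Elf5 was detected on all 3 arrays of each anterior group and on no posterior array. The part of all these markers in the target genes' differences was not tested.

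The next comparison asks the same question of the posterior part, where the pathway is active in the streak. No member passed the threshold there, and Fst, Axin2, Sp5 and Sp8 overlapped between the genotypes, with differences of 0.01 to 0.11. With limma 0 of 13 probes were called, as were 0% of all tested probes, and 0 of 13 had an unadjusted p under 0.05, against 9.64% of all tested probes. The median difference was 0.10, against 0.01 over all tested probes. The groups did not overlap for 1 probe, the dim Tcf7l1 probe 2 (adjusted p = 0.594, limma). It was not above background on any posterior control array, so no fold is given for it. Of all tested probes, 4.65% were higher and 4.68% lower without overlap.

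Axin2 read 10.85, 10.49 and 10.52 in posterior Lhx1epiCKO parts, against 10.75, 10.26 and 10.53 in posterior control parts. Sp5 read 11.79, 11.33 and 11.81 in posterior Lhx1epiCKO parts, against 11.53, 11.49 and 11.59 in posterior control parts. Both sets overlapped, with differences of 0.10 ± 0.15 and 0.11 ± 0.14 (SE). Sp8 read 8.60, 8.52 and 8.44 in posterior Lhx1epiCKO parts, against 8.46, 8.54 and 8.54 in posterior control parts. Fst read 10.88, 10.93 and 10.80 in posterior Lhx1epiCKO parts, against 10.67, 11.03 and 10.84 in posterior control parts. Both overlapped between the genotypes, and the 95% interval of the difference ran from -0.27 to 0.28 for Sp8 and from -0.34 to 0.39 for Fst.

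Of the mediators, Ctnnb1 probe 1 and Tcf7l1 probe 1 each had 1 posterior array far from the others of its group. Lef1 read 8.30, 7.99 and 8.06 in posterior Lhx1epiCKO parts, against 7.93, 8.03 and 8.01 in posterior control parts, and the groups overlapped. Tcf7 probe 1 read 8.20, 7.85 and 7.98 in posterior Lhx1epiCKO parts, against 8.30, 8.18 and 7.99 in posterior control parts, again with overlap. Ctnnb1 probe 1 read 12.13, 11.81 and 12.58 in posterior Lhx1epiCKO parts, against 12.09, 10.94 and 12.13 in posterior control parts. The single low β-catenin value, 10.94, belongs to the array labelled posterior control replicate 2, whose Lhx1 lay within the range of the Lhx1epiCKO arrays. The difference of 0.46 ± 0.27 (SE, adjusted p = 0.567, limma) became 0.07 without that array and -0.14 without both doubted arrays. Ctnnb1 probe 2 read 10.62, 10.41 and 10.997 in posterior Lhx1epiCKO parts, against 10.29, 10.46 and 10.55 in posterior control parts, and it gave no such low value on that array. Tcf7l1 probe 1 read 10.70, 10.62 and 11.92 in posterior Lhx1epiCKO parts, against 10.94, 10.50 and 11.19 in posterior control parts. Its value on posterior Lhx1epiCKO replicate 3 was thus in the range of the anterior arrays, and the difference of 0.21 ± 0.28 (SE) became -0.22 without that array and -0.41 without both. Tcf7l2 probe 1, also highest on that array among posterior Lhx1epiCKO parts, read 8.09, 7.75 and 8.77 in posterior Lhx1epiCKO parts, against 8.69, 7.99 and 8.29 in posterior control parts.

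Whether the genotype effect differed between the parts was tested by the interaction term, anterior effect minus posterior effect. It was 0.97 ± 0.24 for Fst, 0.48 ± 0.21 for Axin2, 0.36 ± 0.18 for Sp8 and 0.32 ± 0.19 for Sp5 (all SE, all adjusted p = 0.981, limma). For Ctnnb1 probe 2 it was -0.59 ± 0.24 at the same adjusted p. None of the 13 probes was called, as were 0% of all tested probes, and 3 (Fst, Axin2 and Ctnnb1 probe 2) had an unadjusted p under 0.05, against 3.41% of all tested probes. The anterior and posterior genotype effects of the target genes are therefore not shown to differ.

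**Figure D3:**
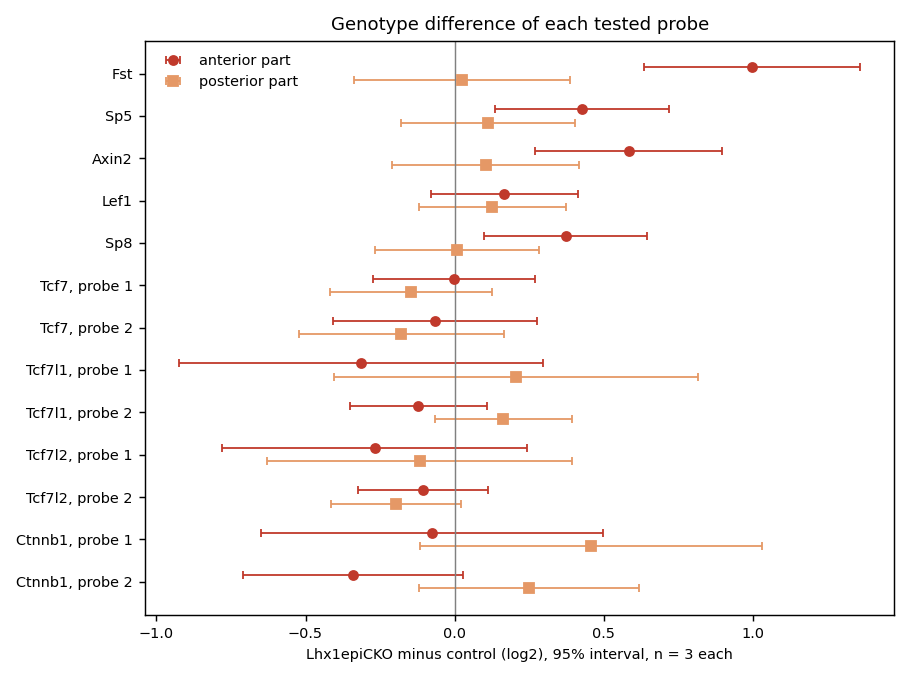
Lhx1epiCKO minus control on the log2 scale for each of the 13 tested probes, in the anterior part (red circles) and the posterior part (orange squares), with 95% intervals from the limma fit and 3 arrays per group. In the anterior part the intervals of Fst, Sp5, Axin2 and Sp8 lie above 0 before adjustment for the number of probes, and in the posterior part every interval includes 0.

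The anterior and posterior parts of control embryos were compared to show how the pathway's readouts are arranged in an embryo that keeps Lhx1. Fst was 5.58-fold lower in the anterior part, Sp5 2.84-fold, Axin2 2.37-fold, Lef1 1.50-fold, Sp8 1.48-fold and Tcf7 probe 1 1.44-fold, while Ctnnb1 probe 2 was 1.65-fold higher. That is 7 of 13 probes called, against 3.01% of all tested probes: 6 were called lower, against 1.65%, and 1 higher, against 1.36%. The anterior and posterior control values did not overlap for any of the 13 probes, 6 higher anteriorly (13.3% of all tested probes) and 7 lower (9.33%). The median difference of the members was -0.53, against 0.02 over all tested probes. The 2 parts of an embryo differ in cell types as well as in signal: the 9 streak markers averaged 7.96 to 8.04 in anterior control parts, against 10.1 to 10.2 in posterior control parts, and their part in the differences was not tested.

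On the log2 scale the feedback gene Axin2 fell to a mean of 9.27 ± 0.16 in anterior control parts, against 10.52 ± 0.25 in posterior control parts (SD, n = 3 each). The difference was -1.25 ± 0.15 (SE, adjusted p = 0.000234, limma). In Lhx1epiCKO embryos Axin2 averaged 9.85 ± 0.12 in anterior parts, against 10.62 ± 0.20 in posterior parts (SD, n = 3 each), a difference of -0.77 ± 0.15 (SE, adjusted p = 0.0185, limma). That call was lost without anterior Lhx1epiCKO replicate 1 (adjusted p = 0.111) or 2 (0.107) or posterior Lhx1epiCKO replicate 1 (0.0508). Axin2 thus lay in the order posterior Lhx1epiCKO, posterior control, anterior Lhx1epiCKO and anterior control, where only the 2 posterior groups overlapped. The order of those 2 was not stable: their difference turned to -0.023 without the array labelled posterior control replicate 2 and to -0.011 without posterior Lhx1epiCKO replicate 1.

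Sp5 averaged 10.03 ± 0.10 in anterior control parts, against 11.53 ± 0.05 in posterior control parts (SD, n = 3 each), lower by a log2 difference of -1.50 ± 0.14 (SE, adjusted p = 3.25e-05, limma). In Lhx1epiCKO embryos it averaged 10.46 ± 0.16 in anterior parts, against 11.65 ± 0.28 in posterior parts (SD, n = 3 each), a difference of -1.19 ± 0.14 (SE, adjusted p = 0.000627, limma). The order of the 4 groups was that of Axin2, and again only the posterior groups overlapped. Sp8 differed between the parts of control embryos by -0.56 ± 0.13 (SE, adjusted p = 0.0304, limma), with means of 7.95 ± 0.23 in anterior and 8.51 ± 0.05 in posterior parts (SD, n = 3 each). The Sp8 call in controls was lost when any 1 of 6 arrays was left out (anterior Lhx1epiCKO replicate 1, anterior control replicates 2 and 3, and each posterior control), at adjusted p-values of 0.0563 to 0.143. In Lhx1epiCKO embryos the Sp8 difference was -0.20 ± 0.13 (SE, adjusted p = 0.548, limma), and the anterior values, up to 8.51, overlapped the posterior ones, from 8.44. As the Sp8 interaction was not called, its difference between the parts is not shown to depend on genotype.

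Fst had the largest difference between the parts among the members in both genotypes. It averaged 8.36 ± 0.07 in anterior control parts, against 10.85 ± 0.18 in posterior control parts (SD, n = 3 each), a log2 difference of -2.48 ± 0.17 (SE, adjusted p = 3.90e-06, limma). In Lhx1epiCKO embryos it averaged 9.36 ± 0.41 in anterior parts, against 10.87 ± 0.07 in posterior parts (SD, n = 3 each), and the difference was -1.51 ± 0.17 (SE, adjusted p = 0.000602, limma). These comparisons share their samples with the genotype comparisons above and are not independent of them.

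Of the activating mediators, Lef1 averaged 7.40 ± 0.18 in anterior control parts, against 7.99 ± 0.05 in posterior control parts (SD, n = 3 each), and fell by 0.59 ± 0.11 (SE, adjusted p = 0.0126, limma). In Lhx1epiCKO embryos Lef1 averaged 7.57 ± 0.06 in anterior parts, against 8.12 ± 0.16 in posterior parts (SD, n = 3 each), and fell by 0.55 ± 0.11 (SE, adjusted p = 0.0332, limma). The Lef1 call in controls was lost without anterior control replicate 1 (adjusted p = 0.0702) or the array labelled posterior control replicate 2 (0.0549). That in Lhx1epiCKO embryos was lost when any 1 of 7 arrays was left out, namely each anterior Lhx1epiCKO array, anterior control replicates 2 and 3, posterior Lhx1epiCKO replicate 1 and posterior control replicate 1, at adjusted p-values of 0.0506 to 0.211. Tcf7 probe 1 fell by 0.53 ± 0.13 in controls (SE, adjusted p = 0.0403, limma), and this call was lost without both doubted arrays (adjusted p = 0.0527). It was also lost when any 1 of 7 arrays was left out (anterior Lhx1epiCKO replicates 1 and 3, each anterior control, and posterior control replicates 1 and 2), at 0.0514 to 0.160. Tcf7 probe 2 differed by -0.58 ± 0.16 in controls (SE, adjusted p = 0.0771, limma), so the 2 probes gave nearly the same size and fell on either side of the threshold. In Lhx1epiCKO embryos the Tcf7 probes differed by -0.38 and -0.47, with adjusted p-values of 0.226 and 0.237.

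The remaining mediators read higher anteriorly. Ctnnb1 probe 2 averaged 11.16 ± 0.28 in anterior control parts, against 10.43 ± 0.13 in posterior control parts (SD, n = 3 each), and rose by 0.73 ± 0.17 (SE, adjusted p = 0.0367, limma). That call was lost when any 1 of 8 arrays was left out (anterior Lhx1epiCKO replicates 1 and 3 and each control array), at adjusted p-values of 0.0511 to 0.166, and held without both doubted arrays (adjusted p = 0.0174). In Lhx1epiCKO embryos the same probe differed by 0.14 ± 0.17 (SE, adjusted p = 0.769, limma). Ctnnb1 probe 1 differed by 0.55 ± 0.27 in controls and by 0.02 ± 0.27 in Lhx1epiCKO embryos (SE), and the first of these became 0.16 without the array labelled posterior control replicate 2.

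Tcf7l1 probe 1 averaged 11.92 ± 0.12 in anterior control parts, against 10.88 ± 0.35 in posterior control parts (SD, n = 3 each), a 2.06-fold difference that missed the threshold (1.04 ± 0.28, SE, adjusted p = 0.0758, limma). Without posterior Lhx1epiCKO replicate 3, which enters this contrast only through the shared variance, the adjusted p was 0.000309, and without both doubted arrays the difference was 0.85 (adjusted p = 0.00117). In Lhx1epiCKO embryos the repressor's gene averaged 11.61 ± 0.18 in anterior parts, against 11.08 ± 0.73 in posterior parts (SD, n = 3 each), a difference of 0.52 ± 0.28 (SE, adjusted p = 0.482, limma). Without posterior Lhx1epiCKO replicate 3 that difference was 0.94 (adjusted p = 0.00419), so the Tcf7l1 result in both genotypes turned on that array. Tcf7l2 probe 1 differed by 0.50 ± 0.24 in controls and 0.35 ± 0.24 in Lhx1epiCKO embryos (SE, adjusted p = 0.405 and 0.568, limma). The dim probe 2 of Tcf7l1 was at least 1.13-fold higher in anterior than in posterior control parts (adjusted p = 0.123), where it was not above background, and that of Tcf7l2 was at least 1.01-fold higher in anterior than in posterior Lhx1epiCKO parts (adjusted p = 0.237).

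Over all members, 4 of 13 probes were called lower and 0 higher between the parts of Lhx1epiCKO embryos (limma), where 0.851% and 0.417% of all tested probes were called, 1.27% in all. At an unadjusted p under 0.05 there were 7 of 13, against 12.3% of all tested probes. The groups did not overlap for 1 probe that was higher (10.6% of all tested probes) and 6 that were lower (7.37%), and the median difference was -0.20, against 0.01 over all tested probes. The calls for Fst and Sp5 held in all 23 alternative fits in both genotypes. That for Axin2 held in all 23 in controls and in 19 in Lhx1epiCKO embryos, and that for Lef1 in 21 and 14.

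**Figure D4:**
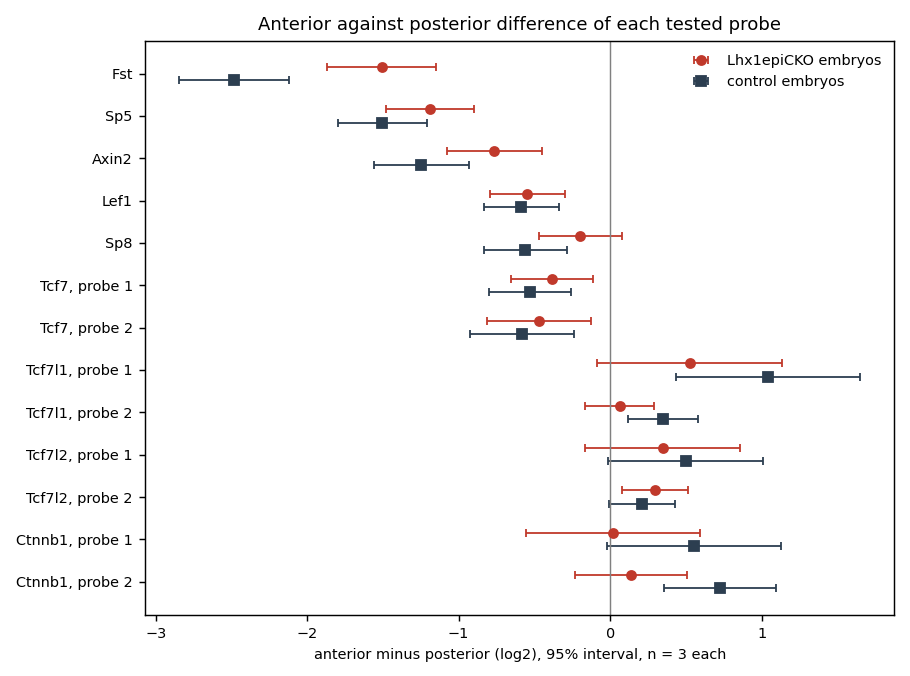
Anterior minus posterior on the log2 scale for each of the 13 tested probes, in Lhx1epiCKO embryos (red circles) and control embryos (dark squares), with 95% intervals from the limma fit and 3 arrays per group. The estimates of Fst, Sp5, Axin2, Lef1, Sp8 and Tcf7 lie below 0 and those of Tcf7l1, Tcf7l2 and Ctnnb1 above it.

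Genes of the same pathway outside the members were read from lists, with 1 probe per gene. Of 18 other WNT targets 15 were tested, and 0 were called between genotypes in the anterior part (limma), against 0.0704% of all tested probes. At an unadjusted p under 0.05 there were 7, against 1.93% of all tested probes. These 7 included Dkk1, which was lower in anterior Lhx1epiCKO parts (-0.33 ± 0.11, SE). Of the 15 genes 12 had a positive and 3 a negative difference, and the median was 0.50, against 0.00 over all tested probes. Apcdd1, a membrane inhibitor of WNT signalling, read 8.75, 8.80 and 8.81 in anterior Lhx1epiCKO parts, against 8.04, 8.31 and 8.22 in anterior control parts, and did not overlap. Tbx6, a T-box factor of paraxial mesoderm, read 8.44, 8.60 and 9.31 in anterior Lhx1epiCKO parts, against 7.49, 7.60 and 7.62 in anterior control parts. Its groups were separate too, and the differences of Apcdd1 and Tbx6 were 0.60 ± 0.10 and 1.21 ± 0.20 (SE, adjusted p = 0.0574 and 0.0596, limma). The caudal-type homeobox genes Cdx1 and Cdx2 differed by 1.55 ± 0.30 and 1.18 ± 0.24 (SE, adjusted p = 0.132 and 0.157, limma). Cdx1 was detected on 1 of the 3 anterior control arrays, and with the undetected values set to the lowest detected signal of their array its difference was 1.48. Without the 2 doubted arrays 5 of the 15 genes were called, and over 23 alternative fits 0 to 8. T, Tbx6 and Evx1 are also among the 9 streak markers given above, and Cdx2 is among the 5 trophoblast markers.

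Between the parts of control embryos, 10 of these 15 targets were called lower anteriorly, against 1.65% of all tested probes, and 1 higher, against 1.36% (limma). The median difference was -1.17, against 0.02 over all tested probes. The largest falls were those of Cdx1 (-4.28 ± 0.30, SE, adjusted p = 4.33e-06, limma; -4.21 with undetected values at the lowest detected signal) and Cdx2 (-3.12 ± 0.24, SE, adjusted p = 6.66e-06, limma). Notum, which inactivates WNT ligands by removing their lipid, fell by 1.39 ± 0.24 and Apcdd1 by 0.52 ± 0.10 (SE, adjusted p = 0.00616 and 0.0114, limma), the direction of the feedback gene Axin2. Dkk1, which blocks WNT co-receptors, was the target that was higher anteriorly, by 0.46 ± 0.11 (SE, adjusted p = 0.0445, limma). Nkd2, the paralogue of Nkd1, differed by -0.12 ± 0.12 (SE, adjusted p = 0.797, limma). Evx1, Tbx6, T, Dll1 and Tnfrsf19 were also called lower, and Cdx4 was at least 2.08-fold lower anteriorly, where it was not above background. In Lhx1epiCKO embryos 7 of the 15 were called lower and 0 higher (limma), against 0.851% and 0.417% of all tested probes, with a median of -0.73, against 0.01 over all tested probes.

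**Figure D5:**
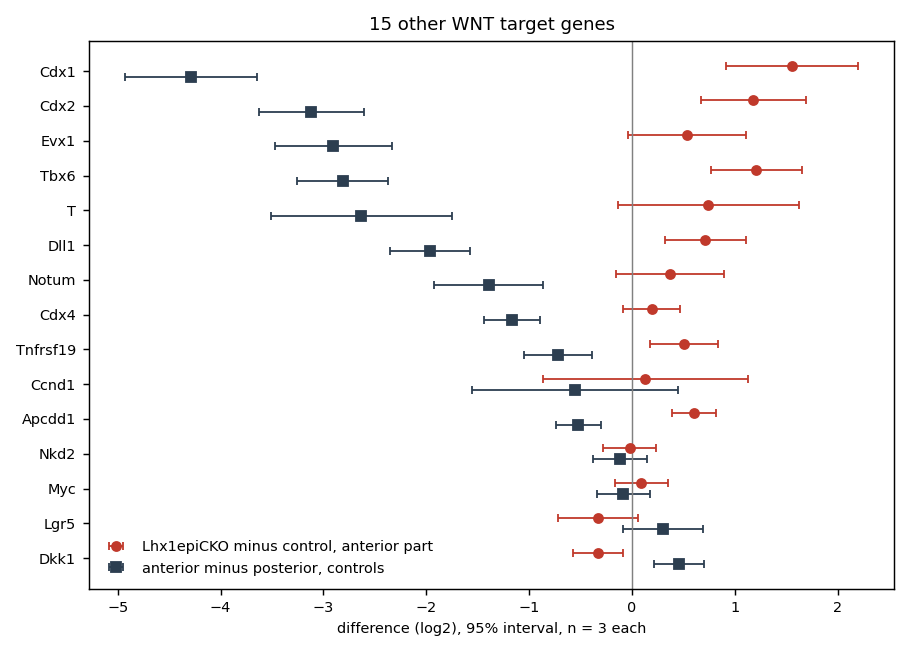
Differences on the log2 scale of 15 other WNT target genes, as Lhx1epiCKO minus control in the anterior part (red circles) and as anterior minus posterior in controls (dark squares), with 95% intervals and 3 arrays per group. Cdx1, at -4.28 between the parts of controls and detected on 1 of 3 anterior control arrays, has the largest genotype difference, 1.55, and Dkk1 at the bottom is negative by genotype and positive between the parts. The 2 comparisons share the anterior control arrays.

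The pathway's other machinery was read from further lists, and 0% to 3.01% of all tested probes were called in the 5 contrasts, so that a count of 0 or 1 says nothing particular about lists of this size. Of 13 tested genes of the destruction complex and Dishevelled, 0 were called in any of the 5 contrasts (limma), with 0 to 2 at an unadjusted p under 0.05 in each, and the list's medians lay between -0.05 and 0.04, where those of all tested probes lay between -0.01 and 0.02. Of 22 nuclear cofactors, 1 was called in 1 contrast: Aes, which codes for a short Groucho-related protein, was higher in anterior than in posterior control parts by 0.66 ± 0.14 (SE, adjusted p = 0.0253, limma). The corepressor gene Tle1 differed in that contrast by 0.65 ± 0.20 (SE, adjusted p = 0.126, limma). Of 5 other SP-family genes Sp6 was called, lower in anterior than in posterior control parts by a difference of -0.71 ± 0.11 (SE, adjusted p = 0.00316, limma), the direction of Sp5 and Sp8. Of 10 listed genes of activin and follistatin signalling only 4 were tested (Fstl1, Acvr1b, Acvr2a and Acvr2b). The probes read for the activin subunit genes Inhba and Inhbb were not detected on enough arrays to be tested. Of these 4 genes and 5 tested genes of cell junctions that hold β-catenin, 0 were called in any contrast (limma), with at most 2 and 1 at an unadjusted p under 0.05. The activin receptor gene Acvr1b differed between anterior genotypes by 0.10 ± 0.14 (SE), beside 1.00 for Fst.

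The genes whose log2 values over the 12 arrays were most like those of 2 targets were listed by Pearson correlation, as a description: the 12 arrays share their 4 groups and the strong difference between the parts. For Sp5 they were Sdcbp2 (r = 0.992), Il17rd (0.985), Tbx6 (0.982), Rhbg (0.980) and Evx1 (0.980). For Axin2 they were Mcc (0.965), Hoxa2 (0.963), Rspo3 (0.960), Tbx6 (0.959) and the WNT receptor gene Fzd10 (0.959). Rspo3, which codes for a secreted enhancer of WNT signalling, averaged 9.44 in anterior Lhx1epiCKO parts, against 8.72 in anterior control parts, and 10.1 in both posterior groups. Fzd10 averaged 8.88 in anterior Lhx1epiCKO parts, against 7.68 in anterior control parts. Both genes were picked by their likeness to Axin2 on the same arrays, so their group means are no separate result.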

How the data were processed

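Total RNA from 12 pools of 5 dissected embryo parts was read on Illumina bead arrays, per the labels' protocols. The deposited table holds log2 expression values normalized by the authors; GenomeStudio and limma are named in the submitters' processing notes, and the normalization and background correction are not given in the sources used here. Its other deposited columns are detection p-values, low for a probe above background on that array. Columns were matched to samples by title.

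The authors' values were used without further scaling. A probe was tested if 3 or more of the 12 arrays detected it at p under 0.05, which left 17041 of 30344 probes and 11470 gene names. All arrays were fitted together with limma 3.58.1 (lmFit and eBayes) in R 4.3.3, with 1 mean per group, 8 residual and 4.87 prior degrees of freedom. Every adjusted p is Benjamini-Hochberg over all tested probes, two-sided, called under 0.05, and the fit was tested on simulated data. A dim group's fold is a bound from the lowest detected signal of its arrays and covers no sampling error. The number of arrays limits the precision.

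Genes named were all members, Lhx1, called members of each list (otherwise up to 2 of smallest p, not all given), and the 5 probes most like each of Sp5 and Axin2. Further genes in the last part were chosen after their values were seen. The members and lists were chosen with earlier results of these data known. The Tcf7 probes and 1 Tcf7l2 probe had no symbol in the platform annotation and kept the file's name. Alternatives were 23 fits: filters, array weights, variance models, scalings, an offset, replicate blocks, only the groups compared, leaving out each array and both doubted arrays.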

Additional observations from a re-analysis of the deposited data

How the results depend on the processing

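With 3 arrays per group, calls near the threshold depended on the setting; the causes were not tested. In the anterior genotype contrast, in which 0 of the 13 probes were called, array weights gave 4 (Fst, Axin2, Sp5 and Sp8), the groups compared alone 2 (Fst and Axin2), and the trended and robust variance 1 and the fit without both doubted arrays 1 (Fst in each). Leaving out each array in turn gave 0 to 1, with Fst called without anterior Lhx1epiCKO replicate 1 or posterior Lhx1epiCKO replicate 3. All tested probes called in that contrast numbered 12, but 246 with array weights, 58 with the groups compared alone, 51 without both doubted arrays and 2 to 42 with 1 array left out. Between the parts of controls 7 probes were called. Leaving out 1 array gave 3 to 9, with 3 without posterior control replicate 2 and 9, which include the 7, without posterior Lhx1epiCKO replicate 3. Between the parts of Lhx1epiCKO embryos 4 were called. Leaving out 1 array gave 2 to 5, with 5, which include the 4, without posterior Lhx1epiCKO replicate 3 and 3, of which 2 are among the 4, without posterior Lhx1epiCKO replicate 1. The groups compared alone gave 2. Without the filter on dim probes Ctnnb1 probe 2 was not called between the parts of controls (adjusted p = 0.0511). In the posterior genotype contrast and the interaction 0 were called in every alternative run.

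Of 1482 member differences over the alternatives, 30 turned their sign, none of them a called value. Anterior genotype, Tcf7 probe 1 became 0.0038 with quantile normalization and 0.001 with median centring, and -0.077 to 0.075 with 1 array left out. Posterior genotype, Tcf7l1 probe 1 became -0.069 with array weights and -0.41 without both doubted arrays, and Ctnnb1 probe 1 became -0.14 without both. Leaving out 1 array, Axin2 there ranged from -0.023 to 0.22, Tcf7l1 probe 1 from -0.22 to 0.44, Tcf7l2 probe 1 from -0.40 to 0.11, Sp8 from -0.031 to 0.048 and Fst from -0.063 to 0.12. In the interaction, Lef1 became -0.081 with array weights and -0.0063 without both, Tcf7l2 probe 1 0.13 and 0.30 under the same settings, and without both Tcf7l1 probe 1 became 0.092 and Ctnnb1 probe 1 0.063. Leaving out 1 array, the interaction ranged from -0.060 to 0.13 for Lef1, from -0.065 to 0.29 for Tcf7 probe 2 and from -0.38 to 0.13 for Tcf7l2 probe 1, and Ctnnb1 probe 1 between the parts of Lhx1epiCKO embryos from -0.16 to 0.22.

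The replicate numbers were not shown to pair samples: 12 same-numbered pairs correlated at -0.04 to 0.25 in their deviations from group means. With 3 candidates each, 8 of 12 correlated best with their own number. Each anterior Lhx1epiCKO array did so with the posterior Lhx1epiCKO arrays, at 0.07 to 0.25. Among controls, at -0.04 to 0.02, only number 3 did. With the number as a fixed replicate block, 0 probes were called in the anterior genotype contrast, 7 between the parts of controls (6 of them called without the block, with Tcf7l1 probe 1 gained at an adjusted p of 0.0277 and Tcf7 probe 1 lost at 0.0604) and 3 between the parts of Lhx1epiCKO embryos, where Lef1 was not called (adjusted p = 0.0662). As a random block (correlation 0.05) it gave 0, 7 and 4. Dim probes limit the second probes of Tcf7l1 and Tcf7l2, which lay near background.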

Other observations

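The WNT targets Ccnd1 and T, read for the list of other targets and described here after their values were seen, were low on 1 posterior array. Ccnd1, a cyclin gene, read 12.46, 12.03 and 9.85 in posterior Lhx1epiCKO parts, against 12.46, 12.60 and 12.44 in posterior control parts. T, the brachyury gene of the streak, read 12.80, 12.92 and 10.98 in posterior Lhx1epiCKO parts, against 12.45, 12.90 and 12.66 in posterior control parts. Both low values belong to posterior Lhx1epiCKO replicate 3, on which Axin2 at 10.52 and Fst at 10.80 lay within the range of the other posterior arrays and Sp5 at 11.81 was the highest. The genotype differences were -1.05 ± 0.46 for Ccnd1 and -0.44 ± 0.41 for T (SE, adjusted p = 0.506 and 0.720, limma). Without that array they were -0.25 ± 0.13 for Ccnd1 and 0.19 ± 0.22 for T (SE, adjusted p = 0.543 and 0.800, limma), so the direction of T turned, and without both doubted arrays -0.20 and 0.31.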
